A study of Mus musculus with 4 samples.

Results

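S100 proteins are small calcium-binding proteins that usually act as dimers. Each chain carries a pair of EF-hands, helix-loop-helix motifs that close around a calcium ion. Calcium opens a hydrophobic face through which most of them bind target proteins such as annexins, myosin chains and tubulin, and some are also secreted and bind the receptors RAGE and TLR4. Their genes are used as markers of fibroblasts (S100a4), of epidermal and other epithelia (S100a14) and of neutrophils (S100a8 and S100a9).

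Levels of 10 listed S100 genes were read in mouse embryonic fibroblasts (MEFs) under reprogramming, of 18193 named genes on the array. For each gene on the list, every probe set annotated to it was taken. The Oct4-, Oct4+Klf4-, Oct4+Klf4+EpCAM- and Oct4+Klf4+EpCAM+ fractions were sorted after fixation, permeabilization and staining, and each was read on 1 array. Oct4 and Klf4 are reprogramming factors and EpCAM is an adhesion molecule of epithelial cells. The labels give no Klf4 or EpCAM gate for the Oct4- cells, no EpCAM gate for the Oct4+Klf4- cells, and neither the way the factors were delivered, the time of the sort nor the strain and age of the embryos. They do not say whether the Oct4- cells shared a culture with the rest.

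The values are levels of probe sets, groups of short oligonucleotides designed against a transcript or against several alike, on a log2 scale, so a difference of 1 is a change of 2-fold. A level describes 1 probe set over the 4 arrays. It was not set against the level of another gene, except where levels of marker genes are summed or their median is taken. In such a sum the brightest probe sets weigh most. With 1 array per fraction there was no replicate and no test. A gene was called higher or lower where its log2 difference was at least 1 in size and the higher of both levels was at or above a floor of 4.53, which is the median over every probe set and array. As a gauge of measurement scatter, probe sets of the same gene differed from each other with a median SD of 0.167 at the Oct4 step, 0.172 at the Klf4 step, 0.122 at the EpCAM step and 0.177 between the ends. It says nothing of how far cultures or sorts would differ. In sorted populations a lower share of cells carrying a transcript and less of it per cell cannot be told apart.

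Array medians lay between 4.49 and 4.55. Transcripts of the sorted proteins followed their gates for Pou5f1, which encodes Oct4 (11.48 to 11.70 in the Oct4-positive fractions, against 7.59 in Oct4- cells), and for Epcam (4.63, 5.20 and 6.54 in the EpCAM-unselected or EpCAM- fractions in gate order, and 9.52 in Oct4+Klf4+EpCAM+ cells). The brighter Klf4 probe set was at 7.32 and 6.24 in the Oct4- and Oct4+Klf4- fractions and at 10.20 and 10.59 in the Klf4-positive ones, while the other Klf4 probe set was at 6.95, 5.69, 2.67 and 3.20 in gate order. Of 10 fibroblast markers, 9 reached the floor on the Oct4- array, and Pdgfra, a receptor often used to mark these cells, stayed below it on every array.

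Of the 10 S100 genes, 9 had a probe set of their own and 7 of these reached the floor on at least 1 array. S100a8 and S100a9 did not. S100a3 reached it only on the 2 Klf4-positive arrays. The single probe set of S100a11 is annotated to 3 genes together, S100a11, its pseudogene S100a11-ps and Gm12854, so its level is given but not assigned to S100a11. The S100 genes fell into 4 patterns: the S100a14 level stepped up at each gate; S100a1, S100a13, S100a3 and S100a4 were lowest in the Oct4+Klf4- fraction and higher in the Klf4-positive ones; S100a6 and S100a10, by the probe set that stands for each, moved by 0.46 at most at any gate; S100a8 and S100a9 stayed below the floor.

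**Figure D1:**
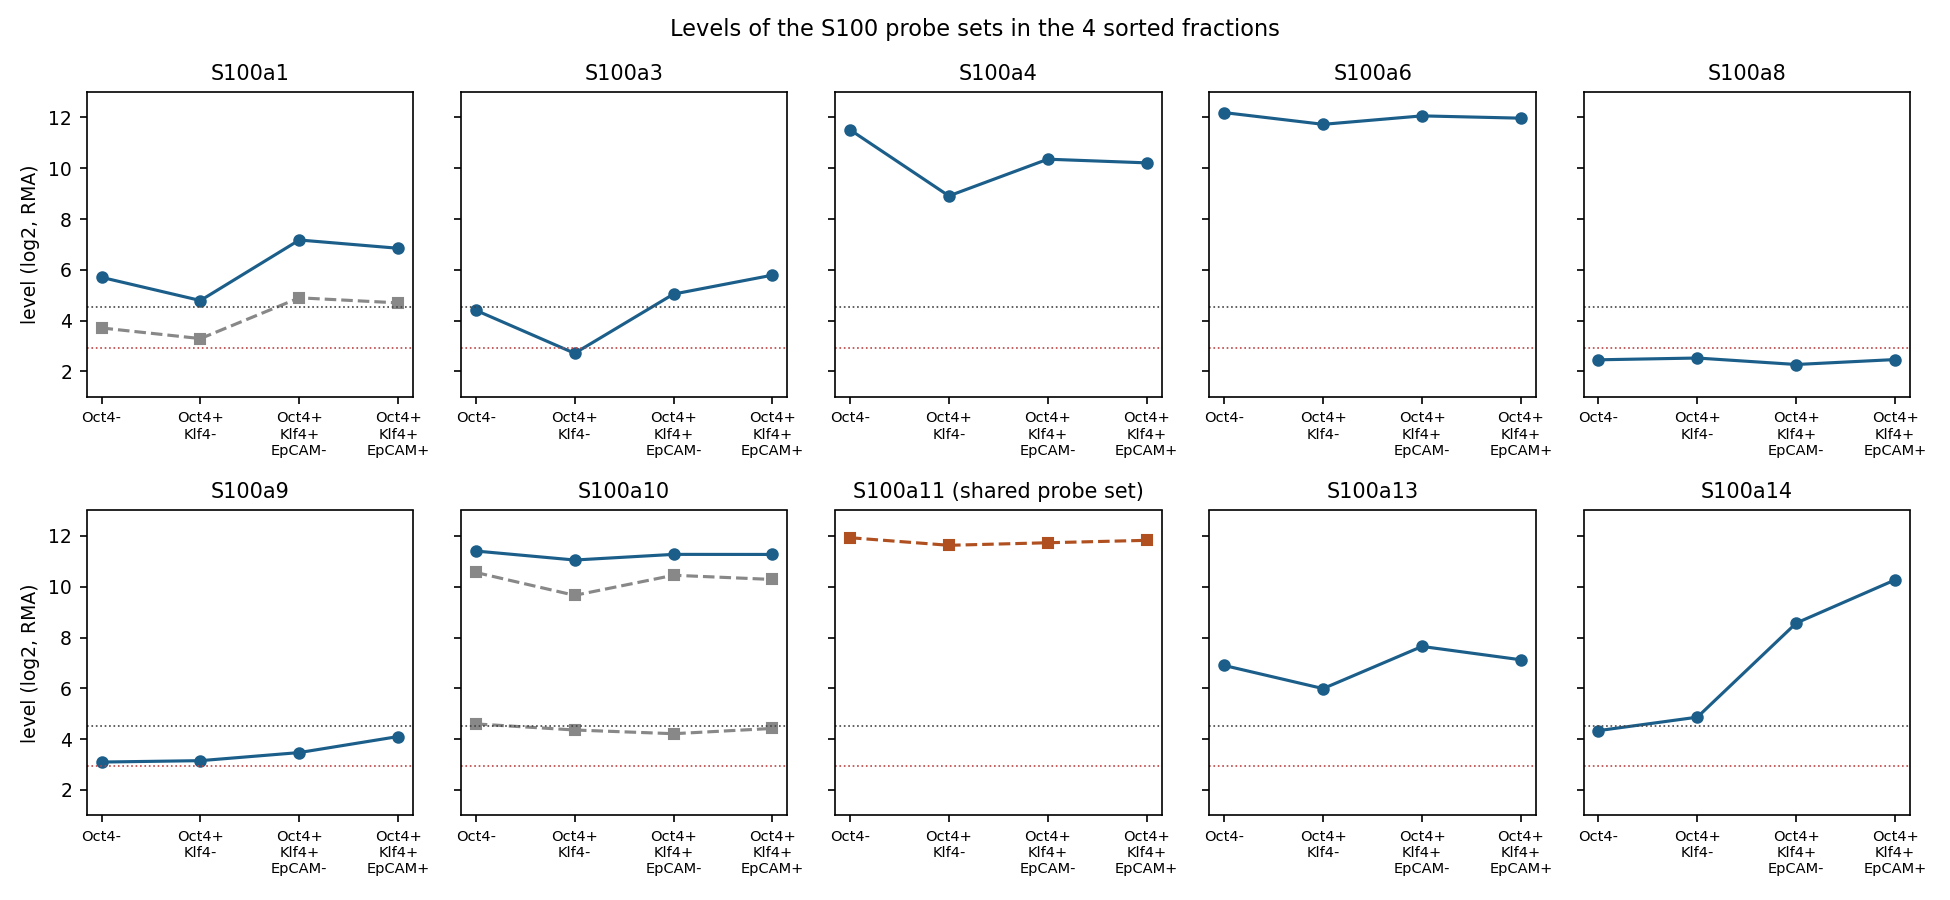
Level (log2, RMA) of every probe set annotated to the 10 S100 genes, one point per array, with the fractions in gate order. Solid lines with circles are the probe set that stands for the gene, dashed grey lines its other probe sets and the dashed orange line the probe set that S100a11 shares; dotted lines are the floor (4.53, upper) and the background ceiling (2.94, lower), and S100a14 climbs to 10.27 while S100a8 stays under the lower line.

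S100a14, an S100 protein of epithelial cells, had the widest range of the 10 genes. Its probe set 1449166_at read 4.34 in Oct4- cells, 4.87 in Oct4+Klf4- cells, 8.57 in Oct4+Klf4+EpCAM- cells and 10.27 in Oct4+Klf4+EpCAM+ cells. The lowest level was therefore below the floor and the level climbed at each gate, most at the Klf4 gate. Its log2 difference between Oct4+Klf4+EpCAM- and Oct4+Klf4- cells was 3.70, and it was 3.25-fold higher in Oct4+Klf4+EpCAM+ than in Oct4+Klf4+EpCAM- cells, and 61.2-fold higher in Oct4+Klf4+EpCAM+ than in Oct4- cells. The Oct4 step, with a log2 difference of 0.53, did not reach the size rule. S100a14 was the only measured S100 gene of the list to step one way at every gate with ends at least 2-fold apart, a pattern that 5.29% of the 11428 genes reaching the floor showed in the rising direction and 5.19% in the falling one.

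S100a16, the direct neighbour of S100a14 on chromosome 3 and an S100 gene outside the list of 10, had its main step at the same gate. Its level was 5.45 in Oct4- cells, 5.93 in Oct4+Klf4- cells, 10.08 in Oct4+Klf4+EpCAM- cells and 10.13 in Oct4+Klf4+EpCAM+ cells. It was 17.7-fold higher in Oct4+Klf4+EpCAM- than in Oct4+Klf4- cells. S100a16 also stepped up at every gate, with ends 25.6-fold apart, so S100a14 was alone in that pattern only within the list. At the EpCAM gate, where S100a14 differed by 1.70, S100a16 differed by 0.05. Both genes thus separated the Klf4-positive fractions from the others, and of this pair the EpCAM gate separated cells by S100a14 alone under the size rule.

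Genes with a profile near that of S100a14 over the 4 arrays were looked up by the distance between profiles after each gene's own mean was subtracted. The 3 nearest among the genes reaching the floor were Krt8, a keratin of simple epithelia (distance 0.19 in log2 units), Sall4, a transcription factor of pluripotent cells (0.39), and Cwh43 (0.40). Krt8 had levels of 5.53, 5.94, 9.50 and 11.34 in gate order. Markers of epithelia moved at the same gates. Of 14 measured keratinocyte markers, 10 were higher and 0 lower at the Klf4 gate. At the EpCAM gate 9 were higher and 0 lower. Over all genes reaching the floor, 8.44% were higher and 6.88% lower at the Klf4 gate, and 3.11% and 1.79% at the EpCAM gate. Below the floor in Oct4+Klf4- cells were Krt1, Krt6a, Krt6b, Krt14, Krt17, Pkp1 and Sprr1a. These could not be called lower at the Klf4 gate, nor Krt6a at the EpCAM gate. Krt5, Krt10 and Ivl were called at no gate. The log2 of the summed level of all 17 on the array was 9.18 in Oct4- cells, 9.14 in Oct4+Klf4- cells, 12.15 in Oct4+Klf4+EpCAM- cells and 13.10 in Oct4+Klf4+EpCAM+ cells. The epidermal regulator Trp63 and the cornified envelope genes Lor and Sprr1b stayed below the floor on every array. Of 8 measured markers of simple epithelia, 4 were higher at the Klf4 gate and 8 at the EpCAM gate. Over all genes, 8.44% and 3.11% were higher at these gates. Cdh1, Cldn4 and Cldn7 were below the floor in Oct4+Klf4- cells and could not be called lower at the Klf4 gate. The same held at the EpCAM gate for Cldn4, Cldn7 and Krt7, below the floor in Oct4+Klf4+EpCAM- cells. Epcam, also on the list, encodes the protein sorted at that gate. The log2 of the summed level of the 9 simple epithelial markers on the array was 9.64, 8.25, 10.79 and 12.63 in gate order. The part of these markers in the S100a14 difference was not tested.

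S100a1, a regulator of calcium-release and calcium-pump proteins in muscle, and S100a13, which takes part in the release of FGF1 and interleukin 1 alpha from cells, are neighbours that start back to back on chromosome 3. In the RefSeq promoter table of build GRCm38.p6, the windows from 250 bases before to 50 after the starts of these genes share 204 bases. The stretch between both starts is shown because both genes had a negative difference at the Oct4 gate and a positive one at the Klf4 gate. That sign pattern was shown by 29.4% of all genes reaching the floor, and the part of the shared stretch in it was not tested. The stretch is given on the plus strand at chr3:90514331-90514434, with matches of the searched motifs in capitals.
S100a1 to S100a13: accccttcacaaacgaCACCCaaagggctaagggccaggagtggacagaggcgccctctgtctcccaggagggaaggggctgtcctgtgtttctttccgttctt

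The motifs searched in this stretch and in the windows of 250 bases before a start were the promoter box TATAAA, the letters CACCC (core of sites bound by Klf proteins), TGANTCA (AP-1 type) and CCAAT, on both strands. Of 32851 windows of that length, 12.4% held TATAAA, 52.0% CACCC, 6.75% TGANTCA and 33.8% CCAAT. A match describes letters, not a bound site. The stretch between S100a1 and S100a13 held CACCC and none of the others. It has 104 bases, so the shares for windows of 250 bases are not those for its length.

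The S100a1 level, by its brighter probe set 1419814_s_at, was 5.70 in Oct4- cells, 4.79 in Oct4+Klf4- cells, 7.17 in Oct4+Klf4+EpCAM- cells and 6.85 in Oct4+Klf4+EpCAM+ cells. It was 5.21-fold higher in Oct4+Klf4+EpCAM- than in Oct4+Klf4- cells and 2.21-fold higher in Oct4+Klf4+EpCAM+ than in Oct4- cells. The fraction with Oct4 and without Klf4 was the lowest. Its other probe set, 1417421_at, ran the same way at lower levels, 3.71, 3.29, 4.90 and 4.70 in gate order, with a log2 difference of 1.60 at the Klf4 gate. Between the ends that probe set gave 0.99, just short of the size rule.

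For S100a13 the levels were 6.90 in Oct4- cells, 5.99 in Oct4+Klf4- cells, 7.65 in Oct4+Klf4+EpCAM- cells and 7.12 in Oct4+Klf4+EpCAM+ cells. It was 3.16-fold higher in Oct4+Klf4+EpCAM- than in Oct4+Klf4- cells. At the Oct4 gate the differences of the pair were nearly the same, -0.91 for S100a1 and -0.91 for S100a13, and neither reached the size rule. The ends differed by 0.22 for S100a13 against 1.14 for S100a1. The distance between their centred profiles was 0.83, and S100a1 had none closer among the measured S100 genes. Of their targets, Fgf1 and Il1a stayed below the floor on every array, while Ryr2, which encodes a ryanodine receptor, was 3.56-fold higher in Oct4+Klf4- than in Oct4- cells, and Atp2a2, the calcium pump, moved by no more than 0.12 at any gate.

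S100a3, a zinc-binding protein known from hair cuticle cells, had a level of 4.41 in Oct4- cells, 2.72 in Oct4+Klf4- cells, 5.05 in Oct4+Klf4+EpCAM- cells and 5.79 in Oct4+Klf4+EpCAM+ cells. The Oct4+Klf4- level lay under the background ceiling of 2.94, the highest level among 27 bacterial control probe sets that stayed below the floor on every array. Against that ceiling S100a3 was at least 4.30-fold higher in Oct4+Klf4+EpCAM- than in Oct4+Klf4- cells. It was 2.60-fold higher in Oct4+Klf4+EpCAM+ than in Oct4- cells. The log2 difference at the Oct4 gate was -1.69, but both levels there were below the floor, so no call was made. RefSeq gives S100a3 a total of 4 start sites in the promoter table, and the single probe set on the array, 1421856_at, cannot tell their transcripts apart from these levels.

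S100a4, used as a fibroblast marker, encodes a protein that binds the heavy chain of non-muscle myosin. It was the one gene of the list called lower at the Oct4 gate. Its level was 11.51 in Oct4- cells, 8.91 in Oct4+Klf4- cells, 10.35 in Oct4+Klf4+EpCAM- cells and 10.21 in Oct4+Klf4+EpCAM+ cells. The Oct4- fraction was the highest and the Oct4+Klf4- fraction the lowest. S100a4 was 6.08-fold lower in Oct4+Klf4- than in Oct4- cells, 2.72-fold higher in Oct4+Klf4+EpCAM- than in Oct4+Klf4- cells, and 2.47-fold lower in Oct4+Klf4+EpCAM+ than in Oct4- cells. At the EpCAM gate it differed by -0.14, short of the size rule.

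Most other fibroblast markers did not turn back up with S100a4 at the Klf4 gate. Of 9 measured, 7 were lower there and 1, the proteoglycan gene Dcn, was higher. Over all genes reaching the floor, 6.88% were lower and 8.44% higher at that gate. At the Oct4 gate 2 of the markers were higher, Dcn and Thy1, and 3 were lower, where 3.59% of all genes were higher and 4.84% lower. The collagen gene Col1a1 was at 11.33, 8.06, 6.15 and 5.26 in gate order. Vim, the intermediate filament vimentin, was at 12.15, 12.06, 11.50 and 9.02. The log2 of the markers' summed level was 13.84 in Oct4- cells, 13.27 in Oct4+Klf4- cells, 12.57 in Oct4+Klf4+EpCAM- cells and 11.58 in Oct4+Klf4+EpCAM+ cells. The part of these markers in the S100a4 differences was not tested. The genes nearest to S100a4 in profile were Sned1 (distance 0.16), Olfm1 (0.41) and P4ha2 (0.41), the last an enzyme of collagen maturation. Among the known binding partners of S100a4, the myosin gene Myh9 had log2 differences of -0.57, -0.05 and -0.11 at the Oct4, Klf4 and EpCAM gates, and Ppfibp1, a liprin, of 0.12, -0.68 and -0.22.

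S100a6, or calcyclin, lies near S100a4 on chromosome 3, with S100a5 between them. It had a level of 12.19 in Oct4- cells, 11.73 in Oct4+Klf4- cells, 12.06 in Oct4+Klf4+EpCAM- cells and 11.97 in Oct4+Klf4+EpCAM+ cells. Its largest step, at the Oct4 gate, was -0.46, and no comparison reached the size rule. Cacybp, which encodes the calcyclin-binding protein, moved by at most 0.16 at any gate, and Sugt1, a related partner, by at most 0.16. The 250 bases before the starts of S100a4 and S100a6 are printed from the same RefSeq build because these near neighbours differed in how far they moved; both are on the plus strand, at chr3:90603520-90603769 and chr3:90612644-90612893, with motif matches in capitals.
S100a4: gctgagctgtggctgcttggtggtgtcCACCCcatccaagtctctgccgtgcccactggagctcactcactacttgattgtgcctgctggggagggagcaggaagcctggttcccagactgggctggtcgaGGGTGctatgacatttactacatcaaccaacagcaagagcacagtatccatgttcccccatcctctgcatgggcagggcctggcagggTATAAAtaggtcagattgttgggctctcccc
S100a6: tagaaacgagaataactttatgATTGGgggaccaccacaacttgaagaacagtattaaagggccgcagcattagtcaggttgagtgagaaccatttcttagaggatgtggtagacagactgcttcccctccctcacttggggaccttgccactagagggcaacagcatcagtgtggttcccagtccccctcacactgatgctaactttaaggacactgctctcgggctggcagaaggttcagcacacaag

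The S100a4 stretch held TATAAA once and CACCC, with its reverse complement GGGTG, at 2 places. In the S100a6 stretch only CCAAT matched, as its reverse complement ATTGG. These letters say nothing of which factor bound there in the sorted cells.

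S100a10, or p11, does not respond to calcium and forms a tetramer with annexin A2 that recruits plasminogen and its activator to the cell surface. Its brightest probe set, 1456642_x_at, read 11.41 in Oct4- cells, 11.05 in Oct4+Klf4- cells, 11.27 in Oct4+Klf4+EpCAM- cells and 11.27 in Oct4+Klf4+EpCAM+ cells. A second, 1416762_at, read 10.56, 9.66, 10.45 and 10.29 in gate order, with differences of -0.90 at the Oct4 gate and 0.79 at the Klf4 gate, and the remaining one, 1439348_at, stayed between 4.21 and 4.60. None of the 3 reached the size rule at any gate. By the probe set that stands for each, S100a6 and S100a10 had centred profiles 0.10 apart. Their levels spanned only 0.46 and 0.35, so a small distance was given beforehand and shows no shared movement. No transcript of the S100a10 complex reached the size rule at a gate: Anxa2 moved by at most 0.48 and the scaffold gene Ahnak by at most 0.28 at any gate.

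Plat, Plau and Plaur, components of plasminogen activation, were in contrast called at the Oct4 gate, and Plau and Plaur also at the Klf4 gate. Over all genes reaching the floor, 3.59% were higher and 4.84% lower at the Oct4 gate, and 8.44% and 6.88% at the Klf4 gate. Of 15 measured S100 targets and receptors, 2 were higher and 4 lower at the Oct4 gate, and 1 was higher and 1 lower at the Klf4 gate. Plg, which encodes plasminogen, stayed under the background ceiling on every array. Plat, tissue plasminogen activator, had levels of 2.40 to 3.10 in the Oct4-positive fractions, against 6.14 in Oct4- cells. It was 8.25-fold lower in Oct4+Klf4- than in Oct4- cells. Plat and the receptor gene Tlr4 reached the floor only on the Oct4- array, so they could only be called lower at the Oct4 gate. The genes called higher there, Syt1 and Ryr2, were below the floor in Oct4- cells and could only be called higher. Plau, urokinase, was 5.61-fold lower in Oct4+Klf4- than in Oct4- cells, 2.85-fold lower in Oct4+Klf4+EpCAM- than in Oct4+Klf4- cells, and 29.2-fold lower in Oct4+Klf4+EpCAM+ than in Oct4- cells. Plaur, the urokinase receptor, was 4.40-fold lower in Oct4+Klf4- than in Oct4- cells and 4.35-fold higher in Oct4+Klf4+EpCAM- than in Oct4+Klf4- cells. It thus dipped in the same fraction as S100a1, S100a3, S100a4 and S100a13.

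The probe set that S100a11 shares, 1460351_at, read 11.93 in Oct4- cells, 11.63 in Oct4+Klf4- cells, 11.73 in Oct4+Klf4+EpCAM- cells and 11.83 in Oct4+Klf4+EpCAM+ cells. Its 4 levels lay within 0.30 of each other. Anxa1, the annexin that S100a11 binds, had levels of 10.62, 9.09, 8.90 and 8.43 in gate order, was called lower at the Oct4 gate but at neither of the others, and was 4.56-fold lower in Oct4+Klf4+EpCAM+ than in Oct4- cells.

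Over the annexins as a group, 10 of 11 with a probe set of their own reached the floor. At the Oct4 gate 1 was higher and 3 were lower, at the Klf4 gate 2 were higher and 1 lower, and at the EpCAM gate 0 were higher and 1 lower. Over all genes 3.59% were higher and 4.84% lower at the Oct4 gate, 8.44% and 6.88% at the Klf4 gate, and 3.11% and 1.79% at the EpCAM gate. Anxa8, an annexin of squamous epithelia, was 4.18-fold lower in Oct4+Klf4- than in Oct4- cells and 10.8-fold higher in Oct4+Klf4+EpCAM- than in Oct4+Klf4- cells. Anxa7 was 3.75-fold higher in Oct4+Klf4+EpCAM- than in Oct4+Klf4- cells. Anxa10 ran the opposite way: it was at least 3.45-fold higher in Oct4+Klf4- than in Oct4- cells. It was at least 3.45-fold lower in Oct4+Klf4+EpCAM- than in Oct4+Klf4- cells. Anxa10 reached the floor only on the Oct4+Klf4- array, at 4.73, and lay under the background ceiling on the others. It could therefore only be called higher at the Oct4 gate and lower at the Klf4 gate. Both of those annexin calls were its own. Anxa3 had levels of 9.30, 7.31, 6.68 and 4.71 in gate order, with a Klf4 step of -0.63 that was not called, and was 24.1-fold lower in Oct4+Klf4+EpCAM+ than in Oct4- cells. The median log2 difference of the measured annexins at the Klf4 gate was -0.07, against 0.04 for all 11428 genes.

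**Figure D2:**
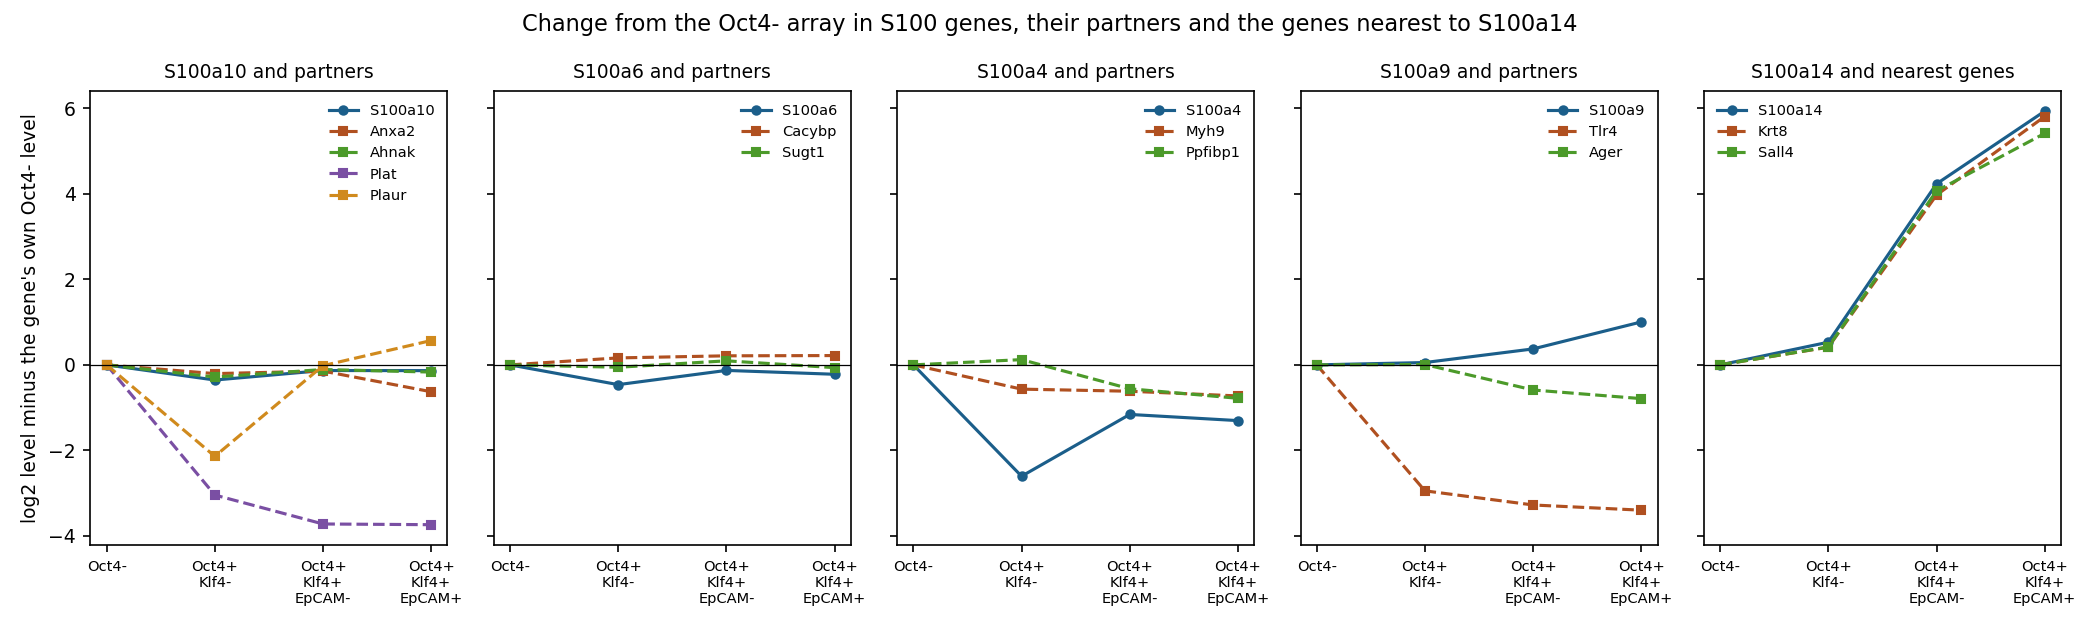
Log2 level of S100 genes (solid lines) and of partner or nearest-profile genes (dashed) minus the gene's own Oct4- level, one point per array in gate order, on one vertical scale. Anxa2 ends at -0.63 and S100a10 at -0.13, while Plat differs by -3.04 at the Oct4 gate; Krt8 and Sall4 climb with S100a14, which ends 5.93 above its Oct4- level. S100a9 stays below the floor.

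S100a8 and S100a9 form calprotectin, a metal-sequestering complex of neutrophils that is also induced in stressed epidermis. S100a8 had levels of 2.46 in Oct4- cells, 2.53 in Oct4+Klf4- cells, 2.27 in Oct4+Klf4+EpCAM- cells and 2.47 in Oct4+Klf4+EpCAM+ cells, all under the background ceiling. In gate order S100a9 read 3.10, 3.15, 3.47 and 4.10, all above the ceiling and below the floor. Its difference between the Oct4+Klf4+EpCAM+ and Oct4- ends was 2.01-fold, which was not called because of the floor. Of 15 myeloid markers, only Cd68 and Cd14 reached the floor on any array, and 6 of the 15 (Itgam, Adgre1, Elane, Mpo, Lcn2 and Camp) were under the ceiling on all 4. The neutrophil genes Ltf and Csf3r were above the ceiling on all 4 arrays and below the floor. The log2 of the summed level of the 15 was 8.38, 7.36, 7.67 and 7.79 in gate order, lowest in Oct4+Klf4- cells. Cd68, the brightest of them on every array, weighs most in that sum and read 7.76, 5.95, 6.32 and 6.48. The median level of the 15 was 2.92, 2.94, 2.90 and 3.30 in gate order and so was not lowest in Oct4+Klf4- cells. Among the receptors for S100a8 and S100a9, Tlr4 had levels of 3.15 to 3.60 in the Oct4-positive fractions, against 6.55 in Oct4- cells, and was 7.71-fold lower in Oct4+Klf4- than in Oct4- cells, while Ager, which encodes RAGE, had log2 differences of 0.01, -0.60 and -0.20 at the 3 gates.

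Counts were set beside those of all 11428 genes reaching the floor. At the Oct4 gate 0 of the 7 measured S100 genes were higher and 1 was lower, where 3.59% of all genes were higher and 4.84% lower. At the Klf4 gate 5 were higher (S100a1, S100a3, S100a4, S100a13 and S100a14) and 0 lower, where 8.44% of all genes were higher and 6.88% lower. S100a3 reached the floor only on the Klf4-positive arrays, so it could only be called higher at this gate. The list itself was chosen with earlier results of these data known, which limits what its counts show. At the EpCAM gate 1 was higher (S100a14) and 0 lower, where 3.11% were higher and 1.79% lower. Between the ends 3 were higher (S100a1, S100a3 and S100a14) and 1 was lower (S100a4), where 11.9% were higher and 10.8% lower. S100a3 and S100a14 were below the floor in Oct4- cells and could only be called higher between the ends. The median log2 difference of the 7 was -0.91 at the Oct4 gate, 1.66 at the Klf4 gate, -0.09 at the EpCAM gate and 0.22 between the ends, and over all genes reaching the floor it was 0.02, 0.04, 0.00 and 0.07. The neighbouring gates share an array, so their values are not independent.

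**Figure D3:**
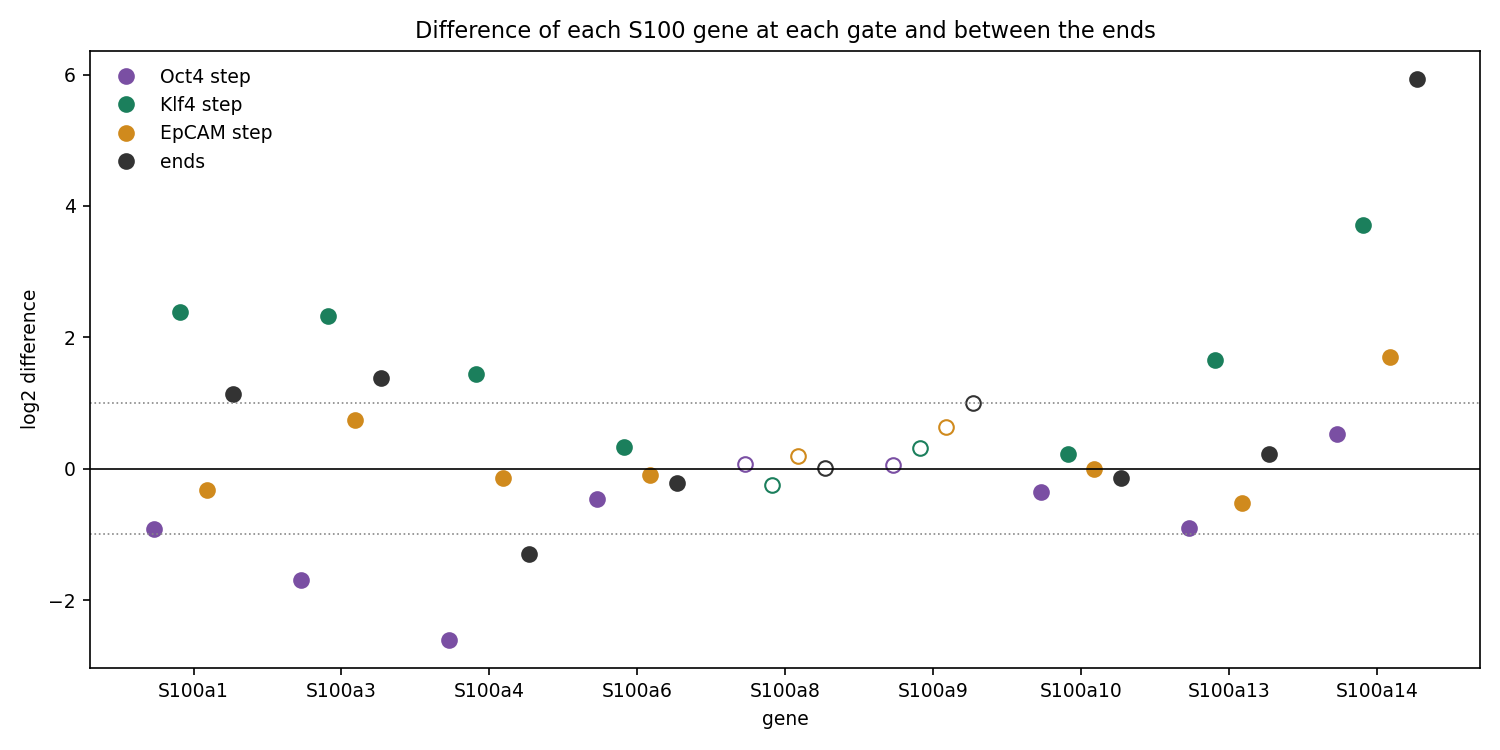
Log2 difference of each S100 gene with its own probe set at the 3 gates and between the ends (first-named fraction minus second: Oct4+Klf4- minus Oct4-, Oct4+Klf4+EpCAM- minus Oct4+Klf4-, Oct4+Klf4+EpCAM+ minus Oct4+Klf4+EpCAM-, and Oct4+Klf4+EpCAM+ minus Oct4-), 1 array each, with no error bars. Dotted lines mark a difference of 1 either way and open circles genes below the floor; at the Klf4 gate 5 genes lie above the upper line, from 1.45 for S100a4 to 3.70 for S100a14.

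In 6 of the 7 measured S100 genes, all but S100a14, the Oct4+Klf4- array held the lowest of the 4 levels, with a negative difference at the Oct4 gate and a positive one at the Klf4 gate. That sign pattern, at any size, was shown by 29.4% of all genes reaching the floor. S100a4 alone was called both lower at the Oct4 gate and higher at the Klf4 gate. The same array stood apart in 1 sign of transcript integrity: the Gapdh control probe sets at the 3′ and 5′ ends read 12.34 and 11.04 in Oct4+Klf4- cells, the widest gap, and differed by 0.97 to 1.04 in the other fractions. Those of Actb differed by -0.07 to -0.05 on all arrays. The myeloid markers Cd68 and Cd14 were also lowest there, at 5.95 and 3.21. The part of these in the low Oct4+Klf4- levels was not tested.

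Profiles near those of the dipping genes were also looked up. The nearest to S100a1 were Fgf18, a fibroblast growth factor (distance 0.11), Slc40a1, the iron exporter ferroportin (0.19), and Mst1 (0.23). The nearest to S100a3 were Sytl1 (0.13), the adhesion gene Nectin1 (0.18) and Ttc39b (0.28), and those to S100a13 were Hsd17b11 (0.17), Bcl3 (0.20) and Sorcs2 (0.22). These are likenesses over 4 arrays out of the profiles of 11428 genes and carry no test.

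By position, the S100 genes of the list lie in 2 stretches of chromosome 3 in the RefSeq table of GRCm38.p6, used here for gene order alone. The stretch from S100a1 to S100a9 holds 12 protein-coding genes, all of them S100 genes, and S100a11 and S100a10 follow after 56 others. Of those 12, 10 had a probe set of their own and 7 reached the floor. In order along the chromosome, the differences at the Klf4 gate were 2.38 for S100a1, 1.66 for S100a13, 3.70 for S100a14, 4.15 for S100a16, 2.33 for S100a3 (a difference from a level under the background ceiling), 1.45 for S100a4 and 0.33 for S100a6. The first 6 of these were called higher and S100a6 was not, where 8.44% of all genes reaching the floor were higher. Apart from S100a16, the called genes are those already counted above for the list, S100a3 included. Chtop, the protein-coding gene next to S100a1 outside the stretch, differed by -0.11. S100a5, between S100a4 and S100a6, stayed below the floor on every array.

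**Figure D4:**
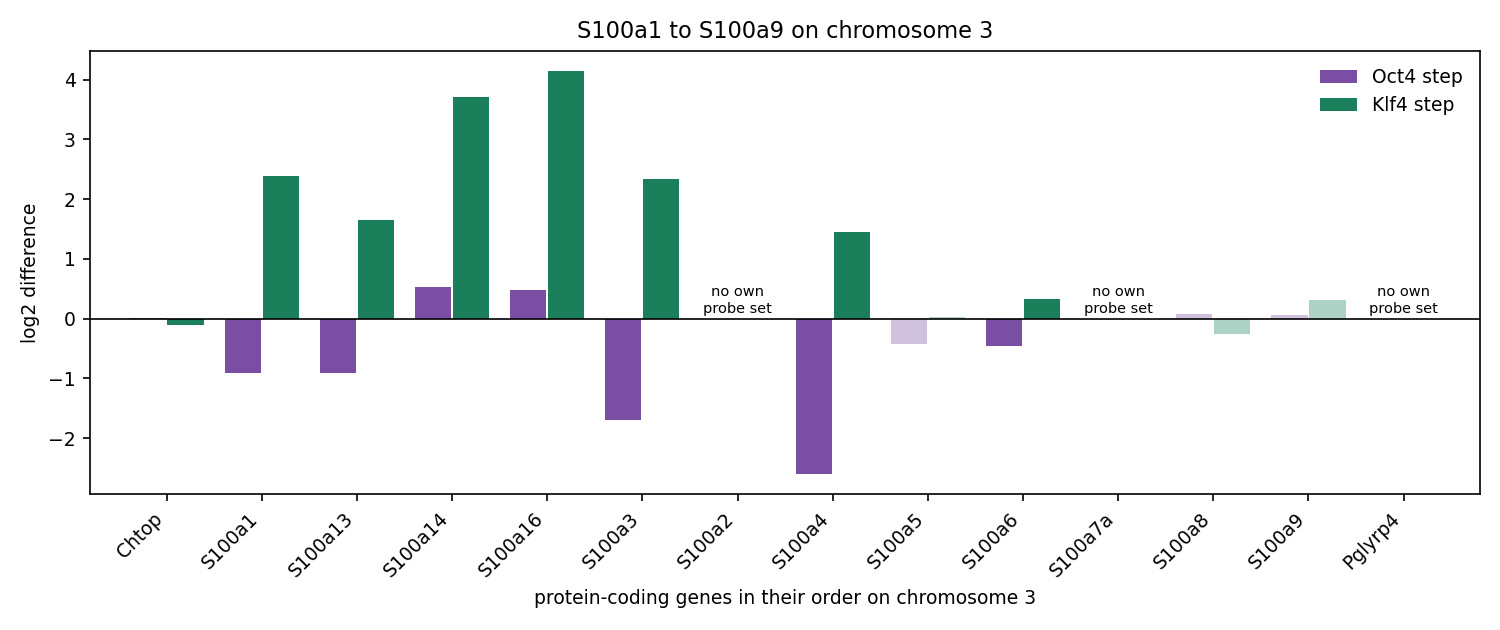
Log2 difference at the Oct4 gate (Oct4+Klf4- minus Oct4-) and at the Klf4 gate (Oct4+Klf4+EpCAM- minus Oct4+Klf4-) for the protein-coding genes from S100a1 to S100a9 and 1 neighbour on each side, in chromosome order and not to distance, 1 array per fraction. Pale bars are genes below the floor; the bars of the Klf4 gate run from 1.45 to 4.15 over S100a1 to S100a4 and are small from S100a5 on.

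The rest of the S100 family was mostly unread. Of 8 further S100 genes looked for, 5 had a probe set of their own and S100a16 alone reached the floor. S100b, a marker of glia and Schwann cells, lay between 3.20 and 3.70, and S100g, an intestinal calcium buffer, between 2.76 and 3.28. Of 7 Schwann and melanocyte markers on the array, 4 reached the floor (Sox10, Mitf, Pmel and Erbb3), as did 11428 of all 18193 genes. The others, Dct, Tyr and Foxd3, were under the background ceiling on every array. The fused-type S100 genes Flg, Hrnr, Rptn, Tchh and Tchhl1, giant proteins of the cornified epidermis and hair, were under the background ceiling on all arrays.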

How the data were processed

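The authors deposited log2 levels of 45101 probe sets, made with RMA (robust multi-array average), per the submitters' processing notes. The sources used here do not give its version, and scanner files were not used here. RNA came from fixed, stained, sorted cells and was amplified before labelling, per the labels' protocols. Depth has no meaning for arrays; their number, 1 per fraction, limits the precision.

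Python 3.11.15 with pandas 2.3.3 was used. Of 45037 probe sets besides controls, 34945 had 1 gene symbol, 932 several and 9160 none. Among the single-gene probe sets of a gene, the one brightest on average over the 4 arrays was read, for 18193 genes, of which 11428 reached the floor. Folds against a level at or below the background ceiling use the ceiling and are given as "at least". Named genes were every listed S100 gene, the listed partners and relatives, and the 3 nearest profiles of genes spanning at least 1 in log2. The members and lists were chosen with earlier results of these data known. The call rules were tested on simulated data. Promoters came from the RefSeq table; 8 of the 10 genes have a window there.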

Additional observations from a re-analysis of the deposited data

How the results depend on the processing

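Each choice was changed alone: the probe set for a gene, probe sets able to read several transcripts, the floor, the size rule and the scaling. The 11 called differences were recomputed under the alternatives other than the size rule, which gave 75 values. All 75 kept their sign and 73 their call. The sign count was largely fixed beforehand. A change of floor, or counting the shared S100a11 probe set, leaves a difference as it is. The choice of probe set could not alter S100a3, S100a4, S100a13 or S100a14, which have a single one each. S100a1 between the ends lost its call with probe sets without the suffixes _x_at, _s_at and _a_at (0.99), and under a higher floor, the 75th percentile of all values, where both levels behind its difference of 1.14 lay below it. S100a3 did not reach the higher floor on any array, so its called differences were left out of the 75 under that floor.

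Under the higher floor, 2 S100 genes were called between the ends, against 4, and the median differences were -0.69 at the Oct4 gate and 0.045 between the ends. With no floor, 2 were called at the Oct4 gate, against 1, and 2 stepped one way at every gate, against 1, S100a9 being the second. The medians over 9 genes were -0.46 at the Oct4 gate and 1.45 at the Klf4 gate. With a size of at least 1.5, 1 was called between the ends, and S100a4 at the Klf4 gate (1.45) was not called. The mean of all probe sets gave a median of -0.67 at the Oct4 gate, and probe sets without those suffixes 0.61 between the ends. Counting the shared S100a11 probe set, an alternative chosen after seeing the data, gave -0.69 at the Oct4 gate. Centring on the median gene, or on Gapdh and Actb control probe sets, moved no array by over 0.07 and changed no count. No paired analysis was possible because each fraction has 1 array.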

Other observations

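Outside the S100 family, 11 of 16 other EF-hand genes with a probe set of their own reached the floor. At the Klf4 gate 1 was higher and 2 were lower, where 8.44% of all genes reaching the floor were higher and 6.88% lower. Capn1, the large subunit of calpain-1, had a level of 7.46 in Oct4- cells, 6.01 in Oct4+Klf4- cells, 7.86 in Oct4+Klf4+EpCAM- cells and 8.69 in Oct4+Klf4+EpCAM+ cells, and was 2.74-fold lower in Oct4+Klf4- than in Oct4- cells and 3.63-fold higher in Oct4+Klf4+EpCAM- than in Oct4+Klf4- cells. Calml4, a calmodulin-like gene, was 4.71-fold lower in Oct4+Klf4+EpCAM- than in Oct4+Klf4- cells, and Rcn3, a calcium-binding protein of the secretory pathway, 3.20-fold lower. The penta-EF-hand genes Sri and Pdcd6 had log2 differences of -0.51 and -0.27 at the Oct4 gate.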
